A study of Mus musculus with 8 samples.

Results

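The chemokine system of mouse small cell lung cancer allografts was described gene by gene, in the cancer cells and in the host cells captured with them. The genes comprised every feature whose symbol was Ccl, Cxcl, Ccr or Cxcr followed by a number, with Cx3cl1, Cx3cr1, Xcl1, Xcr1, Ackr1 to Ackr4, Pf4 and Ppbp. This gave 69 of 22056 features and 64 symbols, because some ligand symbols are listed again on unplaced scaffolds. Of the 69, 46 were ligands, 19 signalling receptors and 4 atypical receptors, and 53 had at least 1 unique molecular identifier (UMI, a tag that counts 1 captured transcript) in a tumour or host cell.

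Chemokines are small secreted proteins that bind to glycosaminoglycans and form gradients along which leukocytes and some other cells move. Most signal through G protein-coupled receptors of the CCR, CXCR, XCR and CX3CR groups, with several ligands per receptor, whereas the atypical receptors bind and remove ligand without G protein signalling. Inflammatory ligands are made on demand downstream of NF-kB and interferons, homeostatic ligands more steadily. In the brain, fractalkine (Cx3cl1) of neurons and its receptor Cx3cr1 on microglia are a resident pair.

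All allografts came from N2N1G, 1 cultured mouse line of this neuroendocrine cancer, and were started from the same number of cells. The series holds 2 brain and 3 subcutaneous allografts made by direct injection and 3 liver allografts made through the tail vein, all taken after 3 weeks, so route and site cannot be told apart in comparisons with liver. Healthy cells were isolated by sorting and profiled by 10x Genomics 3′ sequencing, and the strain, age and sex of the mice are not given in the sources used here. The labels number the allografts within a site but do not say whether each came from its own mouse, so the p-values below measure the spread between these samples, which may be partly technical.

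The 8 libraries held 38460 cells and 372293350 UMIs, with 27140735 to 63049542 UMIs per library, and 36797 cells passed the filters. A cell was called a tumour cell when eGFP and Mycl, transcripts abundant in the line, made up at least 0.2% of its UMIs (34719 cells), and a host cell otherwise (2078 cells). Among these, 231 host cells lay just below that line, at 0.15% to 0.2%, and 282 tumour cells just above it, at 0.2% to 0.25%. Tumour cells carried the neuroendocrine markers Chga (383 to 669 CPM, counts of UMIs per 1e6) and Uchl1 (759 to 1189.7 CPM) in every library. Of the host cells, 516 lay in 3 clusters with tumour markers, which held most host cells of the liver libraries and of subcutaneous replicates 2 and 3. The remaining 1562 host cells came mostly from brain replicate 1 (935), brain replicate 2 (333) and subcutaneous replicate 1 (207). Myeloid cells numbered 839 and 266 in brain, 7, 51 and 11 in liver, and 125, 0 and 2 in subcutaneous tumours. Barcodes were shared between libraries 882 times, 865 of them between 2 libraries, and doublets were not removed.

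The promoters of the members were also looked at, whether or not a member was called. RefSeq (GRCm38.p6) gave 55 promoter windows of 48 of the genes. Among members called in tumour cells below, Ccl4, Ccl5, Cxcl16, Ccr7 and Ccr10 had no window and were not searched. The stretch of 250 bases before each start was searched on both strands for GGGANNTTC, the core of an NF-kB type motif, and for GAAANNGAA, the core of the interferon-stimulated response element. The first was found in 8 of 55 windows (Ccl1, Ccr3, Cxcl1, Cxcl2, Cxcl3, Cxcl9, Cxcl10 and Cxcr2), against 3.23% of all 32851 windows. The second was found in 8 of 55 (Ccl1, Ccl3, Ccl19, Ccr2, Cxcl9, Cxcl10, Cxcl14 and Cxcr1), against 7.13% of all windows. These cores were chosen after a first count with each motif 1 base longer (a C and an A more at the 3′ end), which gave 6 of 55 against 1.21% of all windows and 3 of 55 (Ccl19, Cxcl10 and Cxcl14) against 2.98%. Cxcl10 carried both cores, as did Ccl1 and Cxcl9, and Cxcl14 carried the interferon motif alone. Both are printed because their level differed between sites in tumour cells, and the neighbouring Cxcl1 and Cxcl2 because they share the NF-kB type motif. Each is written 5′ to 3′ on the strand of its gene, and capitals mark every base covered by a match. A match is a string of letters, and binding was not measured. The windows are chr5:92348890-92349139 (minus strand) for Cxcl10, chr13:56296552-56296801 (minus) for Cxcl14, chr5:90890995-90891244 (plus) for Cxcl1 and chr5:90903649-90903898 (plus) for Cxcl2.
Cxcl10: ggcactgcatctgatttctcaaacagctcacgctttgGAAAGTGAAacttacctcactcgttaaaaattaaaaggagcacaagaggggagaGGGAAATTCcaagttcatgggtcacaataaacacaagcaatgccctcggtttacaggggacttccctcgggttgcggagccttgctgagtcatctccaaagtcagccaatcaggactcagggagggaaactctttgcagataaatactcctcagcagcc
Cxcl14: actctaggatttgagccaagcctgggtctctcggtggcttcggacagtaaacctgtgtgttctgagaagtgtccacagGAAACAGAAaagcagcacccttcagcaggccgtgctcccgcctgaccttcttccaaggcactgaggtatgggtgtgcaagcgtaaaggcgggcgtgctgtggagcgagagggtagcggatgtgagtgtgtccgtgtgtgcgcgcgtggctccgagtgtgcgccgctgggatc
Cxcl1: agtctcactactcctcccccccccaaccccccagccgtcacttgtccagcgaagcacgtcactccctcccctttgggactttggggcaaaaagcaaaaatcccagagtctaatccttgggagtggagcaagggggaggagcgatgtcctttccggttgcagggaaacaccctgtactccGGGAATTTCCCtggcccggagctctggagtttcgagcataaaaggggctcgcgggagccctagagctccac
Cxcl2: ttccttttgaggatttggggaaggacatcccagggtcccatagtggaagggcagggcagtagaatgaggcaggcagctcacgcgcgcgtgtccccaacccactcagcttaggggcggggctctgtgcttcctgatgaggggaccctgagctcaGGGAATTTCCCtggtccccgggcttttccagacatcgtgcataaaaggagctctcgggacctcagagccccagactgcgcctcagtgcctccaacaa

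In the tumour cells themselves the chemokine system was small. The most abundant members outside brain were 2 homeostatic ligands and 1 receptor, namely Ccl27a, a ligand of Ccr10 known from skin, Ccl25, a ligand of Ccr9 known from thymus and gut, and Cxcr4, the receptor of Cxcl12. Levels are CPM of the UMIs summed over the tumour cells of a library, given in the order of the replicate numbers, and 3′ UMI counts were not divided by transcript length. Ccl27a stood at 64.2 and 56.5 CPM in brain, 45.8, 47.1 and 48.1 CPM in liver and 53.1, 43.6 and 46.8 CPM in subcutaneous tumours. Ccl25 stood at 21.8 and 23.3 CPM in brain, 24.4, 24.7 and 23.7 CPM in liver and 27.6, 23.0 and 23.7 CPM in subcutaneous tumours. Ccl27a and Ccl25 together made up 93.4% to 96.2% of all ligand UMIs in the 5 liver and subcutaneous libraries other than subcutaneous replicate 1, where they made up 73.2%, and 38.1% and 84.6% in the brain libraries. The other ligands together stood at 2.63 to 5.06 CPM in those 5 libraries, at 29.6 CPM in subcutaneous replicate 1, at 14.6 CPM in brain replicate 2 and at 139.6 CPM in brain replicate 1. Neither ligand passed the test between any pair of sites. The closest was Ccl27a in brain against subcutaneous tumours (log2 fold change 0.33, SE 0.11, adjusted p = 0.0670), where the groups did not overlap. For Ccl25, brain against liver gave log2 fold change -0.22, SE 0.11, adjusted p = 0.193. Exons of Ccl27a (chr4:41769467-41774247, minus strand, GRCm38) overlap Il11ra1 on the other strand and those of Ccl25 (chr8:4325210-4360020, plus strand) overlap Elavl1 on the other strand. The strand setting of the counting is not given in the sources used here, so these levels are uncertain to that extent.

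Cxcr4 (chr1:128588199-128592293, minus strand) was the one chemokine receptor well measured in tumour cells, with 3866 UMIs, and it was lowest in liver. It stood at 15.7 and 13.1 CPM in brain, 8.06, 7.61 and 7.30 CPM in liver and 13.1, 13 and 10.9 CPM in subcutaneous tumours. No liver library reached any brain or subcutaneous library, while brain and subcutaneous libraries adjoined each other. Brain exceeded liver (log2 fold change 0.79, SE 0.14, adjusted p = 0.00640), and brain against subcutaneous tumours did not pass (log2 fold change 0.21, SE 0.14, adjusted p = 0.345). The call against liver was kept without any 1 library. Liver against subcutaneous tumours missed the threshold by little in edgeR (log2 fold change -0.58, SE 0.13, adjusted p = 0.0509) and passed in DESeq2 (log2 fold change -0.57, adjusted p = 0.00442). In tumour cells without a single UMI of 11 myeloid marker genes, the levels were 11.4 and 12.4 CPM in brain, 8.14, 7.45 and 7.33 CPM in liver and 13, 13 and 10.9 CPM in subcutaneous tumours, with brain above liver (log2 fold change 0.57, adjusted p = 0.0267). Its ligand Cxcl12 was scarce in tumour cells, at 0.369 and 0.465 CPM in brain, 0.223, 0.167 and 0.173 CPM in liver and 0.719, 0.322 and 0.385 CPM in subcutaneous tumours, and passed in no comparison (adjusted p = 0.169 to 0.857).

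**Figure D1:**
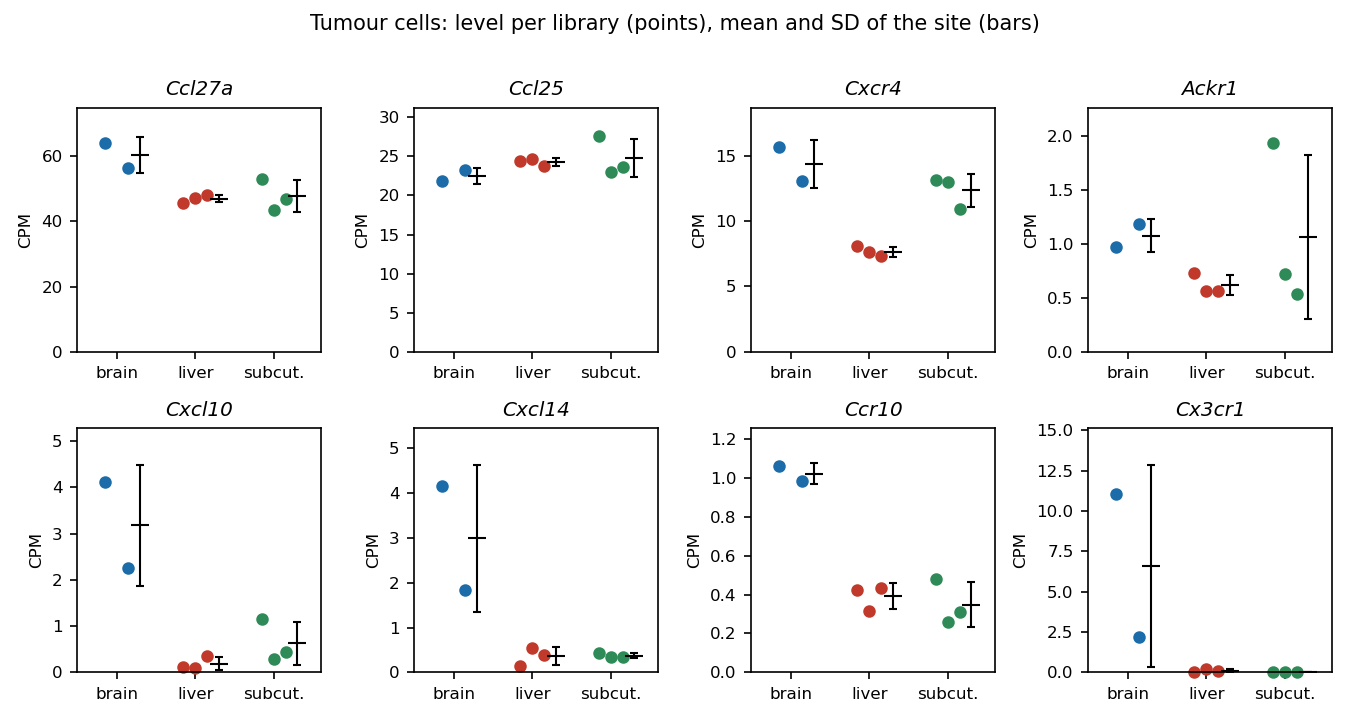
Levels of 8 genes in tumour cells, 1 point per library, with the mean and SD of each site beside the points (CPM, linear axes from 0). Ccl27a and Ccl25 passed no test between sites, Cxcr4 was lowest in the 3 liver libraries, and Cxcl10, Cxcl14, Ccr10 and Cx3cr1 were highest in the 2 brain libraries.

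Against this base, a set of inflammatory ligands and leukocyte receptors was higher in tumour cells from brain. Of the 31 members that passed the filter on low counts (22 ligands, 8 receptors and 1 atypical receptor), 14 were higher in brain than in liver and 0 were lower, where 13.2% of all 13931 genes tested were higher. Against subcutaneous tumours 12 were higher and 0 lower, where 8.94% of all genes were higher. The median log2 fold change of the 31 was 2.93 against liver and 1.57 against subcutaneous tumours, beside 0.00 and 0.00 over all genes tested, and setting the 2 members without a UMI in liver to their bounds left the first at 2.93. Both comparisons share the brain libraries. The members that passed the filter include those that passed it only through brain. The counts moved with single libraries. Without brain replicate 1, 3 members were higher than in liver (Cxcr4, Cxcl10 and Cx3cr1; 5.76% of all genes) and 1 was higher than in subcutaneous tumours (Cx3cr1; 1.99% of all genes). Against liver, 6 were higher without liver replicate 1 (7.83% of all genes) and 9 without liver replicate 2 (6.8%). Against subcutaneous tumours, 20 were higher without subcutaneous replicate 1 (19.3% of all genes), and 3 without replicate 2 (3.5%) or replicate 3 (3.35%).

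RNA of host myeloid cells moved with these values and is given beside them. The 11 myeloid markers summed to 547 and 82.3 CPM in tumour cells from brain, to 5.57, 16 and 4.90 CPM from liver, and to 45.7, 1.26 and 0.906 CPM from subcutaneous tumours. The 4 libraries with the highest marker level held, in the same order, the largest shares of myeloid cells, which were 24.9% and 6.03% of kept cells in brain, 0.168%, 1.17% and 0.229% in liver, and 2.83%, 0% and 0.0413% in subcutaneous tumours. Tumour cells without any myeloid marker UMI made up 21.5% and 75.9% of tumour cells in brain and 85.1% to 99.0% elsewhere. In brain replicate 1 they were 519 cells, in which 1 UMI is 0.317 CPM, so low levels there rest on few UMIs. In tumour cells without a myeloid marker UMI alone, 27 members passed the filter on low counts, and Ccl12, Ccl22, Ccr1, Ccr7 and Pf4 no longer did. Of the 27, 8 were higher in brain than in liver (Cxcr4, Cxcl10, Cx3cr1, Cxcl16, Ccl5, Ccl3, Ccl4 and Cxcl14), where 11.2% of all 13722 genes were higher. Against subcutaneous tumours 4 were higher (Cx3cr1, Ccl5, Ccl3 and Cxcl14), where 7.36% of all genes were.

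The level of a gene in tumour cells was also set against its level in the myeloid cells of the same library. In brain replicate 1 the 11 markers stood in tumour cells at 0.981% to 2.30% of their myeloid level (median 1.72%), and the 25 members with at least 50 myeloid UMIs had a median of 1.78%. In brain replicate 2 the markers stood at 0.233% to 0.363% (median 0.306%) and 19 members had a median of 0.307%. In brain replicate 1, 13 members lay within the markers' range, 5 below it and 7 above it, namely Cxcr4 (40.2%), Cxcl1, Cxcl2, Cxcl10 (4.40%), Cxcl13, Ccl22 and Cxcl14 (3.73%). In brain replicate 2, 8 lay within, 5 below and 6 above, among them Cxcl14 (2.18%), Cxcl2, Cx3cr1, Ccr1 and Ccl3. Cxcl14 and Cxcl2 were above in both, and Cxcr4 and Cxcl10 had fewer than 50 myeloid UMIs in brain replicate 2. These positions are point ratios without counting error, and some rest on few UMIs or lie near the limit. In brain replicate 1 Cxcl1 was above on 7 tumour UMIs and Ccl24 below on 2. In brain replicate 2 Cx3cr1 stood at 0.379%, just above the highest marker. How much of any member's level in tumour cells came from myeloid RNA was not tested.

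**Figure D2:**
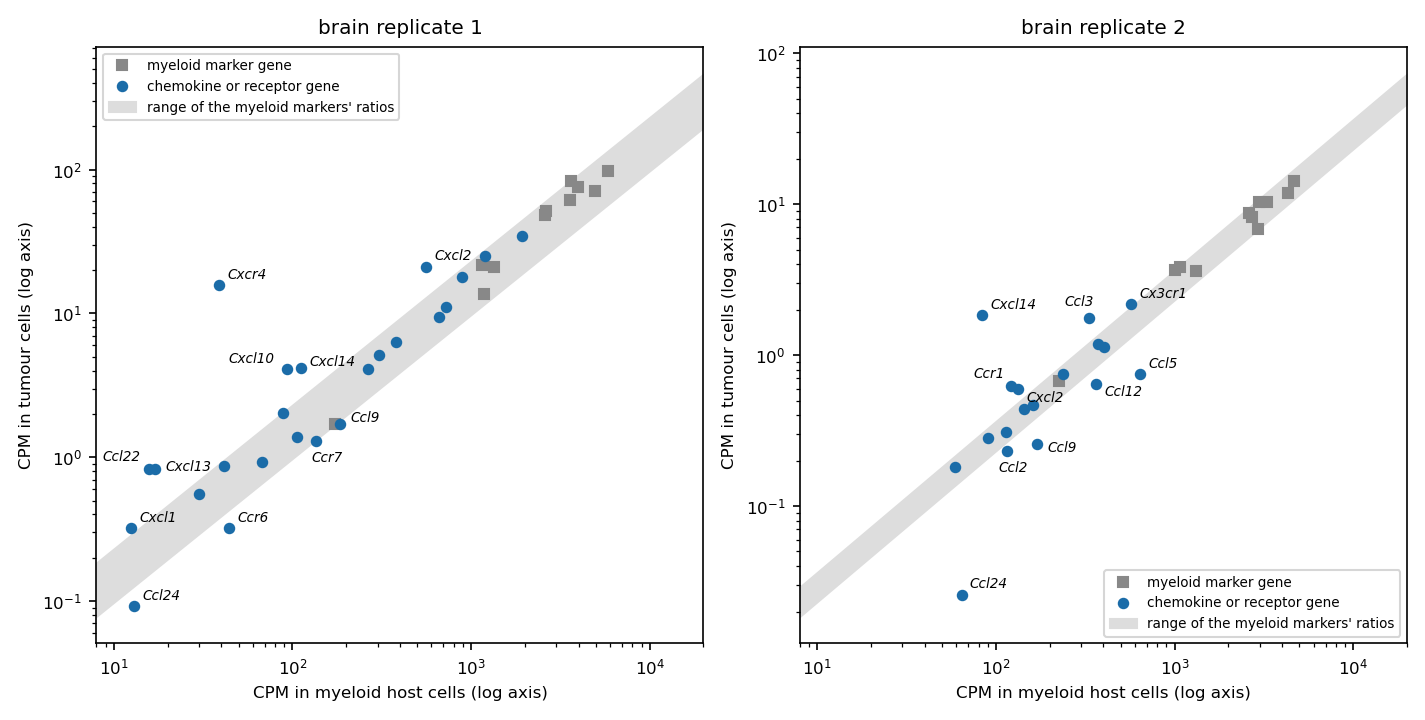
Level of each gene in tumour cells (vertical, CPM, log axis) against its level in myeloid host cells of the same library (horizontal, CPM, log axis) for both brain libraries, with members as circles and myeloid markers as squares. The grey band spans the markers' ratios, 0.981% to 2.30% in replicate 1 and 0.233% to 0.363% in replicate 2, and members reported here that lie outside it are named.

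Among the ligands above the markers' range in either brain library, Cxcl10, Cxcl14 and Ccl3 also passed the test against liver in cells without a myeloid marker UMI. Ccl3 was above it in brain replicate 2 (0.526%) and within it in replicate 1 (2.08%). Cxcl10, the interferon-induced ligand of Cxcr3, stood at 4.10 and 2.25 CPM in brain, 0.121, 0.105 and 0.345 CPM in liver and 1.15, 0.290 and 0.443 CPM in subcutaneous tumours. Both brain libraries lay above all others. Brain exceeded liver (log2 fold change 3.93, SE 0.67, adjusted p = 0.00508) and subcutaneous tumours (log2 fold change 2.35, SE 0.61, adjusted p = 0.0343). In cells without a myeloid marker UMI it stood at 1.90 and 1.70 CPM in brain, with 1 UMI at 0.317 CPM in brain replicate 1. It stood at 0.103, 0.111 and 0.351 CPM in liver and 1.33, 0.278 and 0.448 CPM in subcutaneous tumours in such cells. The difference from liver passed there (log2 fold change 3.15, adjusted p = 0.0188) but that from subcutaneous tumours did not (adjusted p = 0.213). The receptor Cxcr3 had 1 UMI in all tumour cells. The call against subcutaneous tumours was lost without brain replicate 1, brain replicate 2, liver replicate 1, liver replicate 2, subcutaneous replicate 2 or subcutaneous replicate 3 (adjusted p = 0.0531 to 0.207). Exons of Cxcl10 overlap Art3 on the other strand.

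Cxcl14, a homeostatic ligand of epithelia and brain, stood at 4.15 and 1.83 CPM in brain, 0.142, 0.544 and 0.389 CPM in liver and 0.432, 0.338 and 0.347 CPM in subcutaneous tumours. The brain libraries were again the highest. Brain exceeded liver (log2 fold change 2.93, SE 0.52, adjusted p = 0.00619) and subcutaneous tumours (log2 fold change 2.99, SE 0.52, adjusted p = 0.00890). In cells without a myeloid marker UMI the levels were 1.59 and 1.85 CPM in brain, with 1 UMI at 0.317 CPM in brain replicate 1. They were 0.144, 0.444 and 0.219 CPM in liver and 0.435, 0.327 and 0.351 CPM in subcutaneous tumours, and both differences passed (adjusted p = 0.00688 and 0.0170). Without brain replicate 1 neither did (adjusted p = 0.0608 and 0.0822). Among host cells of brain, Cxcl14 was highest in the astrocyte-like cluster, at 596 and 449 CPM in the 2 libraries.

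Ccr10, the receptor of Ccl27a and Ccl28, was low, with 169 UMIs in tumour cells and 3 in host cells. It stood at 1.06 and 0.982 CPM in brain, 0.425, 0.314 and 0.432 CPM in liver and 0.480, 0.258 and 0.308 CPM in subcutaneous tumours, with no overlap between brain and the other sites. Brain exceeded liver (log2 fold change 1.27, SE 0.39, adjusted p = 0.0466) and subcutaneous tumours (log2 fold change 1.55, SE 0.39, adjusted p = 0.0305). In cells without a myeloid marker UMI the levels were 1.27 and 0.869 CPM in brain, 0.431, 0.333 and 0.439 CPM in liver and 0.464, 0.262 and 0.312 CPM in subcutaneous tumours and neither difference passed (adjusted p = 0.0998 and 0.0567), with log2 fold changes of 1.20 and 1.55. The call against liver was lost without brain replicate 1, brain replicate 2, liver replicate 1, liver replicate 2, liver replicate 3, subcutaneous replicate 2 or subcutaneous replicate 3 (adjusted p = 0.0524 to 0.152) and was kept in 5 of 17 alternative fits. That against subcutaneous tumours was lost without brain replicate 1, brain replicate 2, liver replicate 1, liver replicate 2, subcutaneous replicate 2 or subcutaneous replicate 3 (adjusted p = 0.0504 to 0.126) and was kept in 8 of 17. Its ligand Ccl28 stood at 0.277 and 0.103 CPM in brain, 0.506, 0.230 and 0.281 CPM in liver and 0.216, 0.177 and 0.25 CPM in subcutaneous tumours, with no call (adjusted p = 0.258 to 0.813).

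The macrophage inflammatory proteins Ccl3 and Ccl4 and their companions Ccl5 and Ccl12 were among the most abundant ligands in tumour cells of brain replicate 1. Ccl3 stood at 24.9 and 1.76 CPM in brain, 0.121, 0.502 and 0.0863 CPM in liver and 0.528, 0.177 and 0.135 CPM in subcutaneous tumours. Ccl4 stood at 34.3 and 1.14 CPM in brain, 0.0607, 0.272 and 0.0863 CPM in liver and 0.815, 0.0322 and 0.0193 CPM in subcutaneous tumours. Both stood far lower in brain replicate 2, where myeloid cells also made up a smaller share, and both brain libraries lay above all others. Brain exceeded liver for Ccl3 (log2 fold change 5.66, SE 1.19, adjusted p = 0.0154) and Ccl4 (log2 fold change 6.83, SE 1.78, adjusted p = 0.0389). Against subcutaneous tumours Ccl3 passed (log2 fold change 5.60, SE 1.18, adjusted p = 0.0222) and Ccl4 did not (adjusted p = 0.0576). The call of Ccl3 against liver was lost without brain replicate 1 or liver replicate 1 (adjusted p = 0.0626 to 0.110), that of Ccl4 without brain replicate 1, liver replicate 1, liver replicate 2, liver replicate 3, subcutaneous replicate 2 or subcutaneous replicate 3 (adjusted p = 0.0669 to 0.272), and that of Ccl3 against subcutaneous tumours without brain replicate 1, subcutaneous replicate 2 or subcutaneous replicate 3 (adjusted p = 0.0945 to 0.153). Ccl5, a ligand of Ccr1, stood at 18 and 0.749 CPM in brain, 0.0202, 0.0627 and 0.0648 CPM in liver and 0.288, 0.0322 and 0 CPM in subcutaneous tumours, and brain exceeded liver (log2 fold change 7.37, SE 1.56, adjusted p = 0.0152) and subcutaneous tumours (log2 fold change 6.56, SE 1.44, adjusted p = 0.0248). Ccl12, a mouse ligand of Ccr2, stood at 9.5 and 0.646 CPM in brain, 0, 0 and 0.0432 CPM in liver and 0.288, 0.0161 and 0.0193 CPM in subcutaneous tumours. In liver it rested on 2 UMIs, so the ratio to liver is 275 with a counting interval of 75.1 to 2280.4 (adjusted p = 0.0122), and brain also exceeded subcutaneous tumours (log2 fold change 5.64, SE 1.33, adjusted p = 0.0286). For Ccl5 the call against liver was lost without brain replicate 1, liver replicate 1 or liver replicate 2 (adjusted p = 0.0555 to 0.124) and that against subcutaneous tumours without brain replicate 1, subcutaneous replicate 2 or subcutaneous replicate 3 (adjusted p = 0.0933 to 0.237). For Ccl12 they were lost without brain replicate 1, liver replicate 1 or liver replicate 2 (adjusted p = 0.0505 to 0.0873) and without brain replicate 1, liver replicate 3, subcutaneous replicate 2 or subcutaneous replicate 3 (adjusted p = 0.0614 to 0.291).

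Among the other ligands, Cxcl16 and Ccl22 were called. Cxcl16, the transmembrane ligand of Cxcr6, stood at 6.32 and 1.19 CPM in brain, 0.142, 0.314 and 0.130 CPM in liver and 0.336, 0.0322 and 0.0193 CPM in subcutaneous tumours, and brain exceeded liver (log2 fold change 4.11, SE 0.97, adjusted p = 0.0174) and subcutaneous tumours (log2 fold change 4.93, SE 1.02, adjusted p = 0.0164). Ccl22, a dendritic cell ligand of Ccr4, stood at 0.830 and 0.284 CPM in brain, 0, 0 and 0 CPM in liver and 0.0480, 0.0322 and 0 CPM in subcutaneous tumours. No UMI was seen in liver, so brain was at least 23.0-fold higher against a floor of 3 counts over the 3 liver libraries (adjusted p = 0.0106), and against subcutaneous tumours the call was log2 fold change 4.23, SE 0.96, adjusted p = 0.0294. For Cxcl16 the call against liver was lost without brain replicate 1, liver replicate 1 or liver replicate 3 (adjusted p = 0.0624 to 0.198) and that against subcutaneous tumours without brain replicate 1, subcutaneous replicate 2 or subcutaneous replicate 3 (adjusted p = 0.0554 to 0.145). For Ccl22 they were lost without brain replicate 1 (adjusted p = 0.0735) and without brain replicate 1, brain replicate 2, subcutaneous replicate 2 or subcutaneous replicate 3 (adjusted p = 0.0712 to 0.197). Exons of Cxcl16 overlap Zmynd15 on the other strand.

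The leukocyte receptors Cx3cr1, Ccr1 and Ccr7 were higher in brain tumour cells in both comparisons. Cx3cr1, the fractalkine receptor of microglia, stood at 11 and 2.17 CPM in brain, 0.0405, 0.230 and 0.0648 CPM in liver and 0.0240, 0.0161 and 0.0193 CPM in subcutaneous tumours. Brain exceeded liver (log2 fold change 5.72, SE 0.77, adjusted p = 0.00214). In subcutaneous tumours it rested on 3 UMIs, so the ratio is 277 with a counting interval of 94.1 to 1353 (adjusted p = 0.00168). In brain cells without a myeloid marker UMI it stood at 6.98 and 0.543 CPM and both comparisons passed (adjusted p = 0.0111 and 0.00745). It was the one member called against both sites in every alternative fit that could be run.

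Ccr1 and Ccr7 had lower levels than Cx3cr1. Ccr1, a receptor of Ccl3, Ccl5, Ccl6 and Ccl9, stood at 2.03 and 0.620 CPM in brain, 0, 0.0418 and 0.0216 CPM in liver and 0.0480, 0 and 0 CPM in subcutaneous tumours. It rested on 3 UMIs in liver and 2 in subcutaneous tumours, with ratios of 53.9 (counting interval 17.7 to 268, adjusted p = 0.00604) and 87.6 (23.3 to 738, adjusted p = 0.00744). Ccr7, the receptor of migrating dendritic cells, stood at 1.29 and 0.465 CPM in brain, 0, 0.0209 and 0.0216 CPM in liver and 0.168, 0 and 0.0193 CPM in subcutaneous tumours. Against liver, where it had 2 UMIs, the ratio was 54.7 (14.3 to 465, adjusted p = 0.0133), and against subcutaneous tumours the call was log2 fold change 3.88, SE 1.03, adjusted p = 0.0360. For Ccr1 the calls against liver and against subcutaneous tumours were lost without brain replicate 1 (adjusted p = 0.0593) and 0.0700. For Ccr7 they were lost without brain replicate 1, liver replicate 1 or liver replicate 2 (adjusted p = 0.0521 to 0.0947) and without brain replicate 1, brain replicate 2, liver replicate 1, liver replicate 2, liver replicate 3, subcutaneous replicate 2 or subcutaneous replicate 3 (adjusted p = 0.0544 to 0.234).

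The other 13 members tested in tumour cells passed in no comparison. Among them, 5 ligands of the CC group were high in brain replicate 1 and in subcutaneous replicate 1. Ccl2, the main ligand of Ccr2, stood at 4.10 and 0.233 CPM in brain, 0.0810, 0.146 and 0.130 CPM in liver and 2.06, 0.0645 and 0.0578 CPM in subcutaneous tumours. Ccl7, another ligand of Ccr2, stood at 0.922 and 0.181 CPM in brain, 0.0405, 0.0627 and 0.0863 CPM in liver and 2.16, 0.0161 and 0.154 CPM in subcutaneous tumours. Ccl8, whose highest host level was in a macrophage-like cluster, stood at 0.876 and 0.439 CPM in brain, 0, 0 and 0 CPM in liver and 7.17, 0.0484 and 0.0771 CPM in subcutaneous tumours. All 3 were low in liver, and Ccl8 had no UMI there. Ccl6, a ligand of Ccr1, stood at 5.12 and 0.749 CPM in brain, 0.243, 0.293 and 0.0432 CPM in liver and 4.51, 0.0161 and 0.0963 CPM in subcutaneous tumours. Ccl9, another ligand of Ccr1, stood at 1.71 and 0.258 CPM in brain, 0.182, 0.230 and 0.0863 CPM in liver and 3.02, 0.0322 and 0.0193 CPM in subcutaneous tumours. For each of the 5, both brain replicate 1 and subcutaneous replicate 1 lay above the other 6 libraries, so the libraries of 1 site were spread widely, and adjusted p over the 3 comparisons and 5 genes ran from 0.129 to 0.979.

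Among CXC ligands, Cxcl2, a neutrophil attractant, stood at 21.2 and 0.594 CPM in brain, 0.0607, 1.19 and 0.389 CPM in liver and 1.85, 0.0161 and 0.0193 CPM in subcutaneous tumours. Cxcl1, its neighbour in the genome with the same role, stood at 0.323 and 0.129 CPM in brain, 0.0607, 0.188 and 0.194 CPM in liver and 0.599, 0.274 and 0.25 CPM in subcutaneous tumours. Across the 8 libraries Cxcl2 thus spanned 0.0161 to 21.2 CPM and Cxcl1 0.0607 to 0.599 CPM, and both carry the NF-kB type motif in the sequences above. Cxcl13, the ligand of Cxcr5, stood at 0.830 and 0.310 CPM in brain, 0.385, 0.355 and 0.151 CPM in liver and 1.34, 0.355 and 0.270 CPM in subcutaneous tumours. The platelet factor Pf4 stood at 0.553 and 0.284 CPM in brain, 0, 0 and 0.151 CPM in liver and 0.647, 0.0322 and 0.0385 CPM in subcutaneous tumours. Both had their highest level in subcutaneous replicate 1, and none of these 4 ligands passed (adjusted p = 0.188 to 0.999 for Cxcl2, adjusted p = 0.331 to 0.723 for Cxcl1, adjusted p = 0.506 to 0.872 for Cxcl13 and adjusted p = 0.207 to 0.713 for Pf4). Fractalkine (Cx3cl1) stood at 0.231 and 0.439 CPM in brain, 0.162, 0.0836 and 0.0216 CPM in liver and 0.480, 0.0967 and 0.173 CPM in subcutaneous tumours, with brain and subcutaneous libraries overlapping (adjusted p = 0.172 to 0.715).

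The 2 remaining signalling receptors were low. Ccr2, the monocyte receptor, stood at 1.38 and 0.310 CPM in brain, 0, 0.105 and 0.0216 CPM in liver and 0.695, 0.0322 and 0 CPM in subcutaneous tumours (adjusted p = 0.107 to 0.514). Cxcr2, a receptor of Cxcl1 and Cxcl2, stood at 1.15 and 0.362 CPM in brain, 0.142, 0.335 and 0.302 CPM in liver and 0.408, 0.129 and 0.116 CPM in subcutaneous tumours (adjusted p = 0.123 to 0.816). Brain replicate 1 was the highest library for both. The atypical receptor Ackr1, which binds many inflammatory chemokines on venules and red cells, stood at 0.968 and 1.19 CPM in brain, 0.729, 0.565 and 0.561 CPM in liver and 1.94, 0.725 and 0.539 CPM in subcutaneous tumours (adjusted p = 0.381 to 0.976). Its exons (chr1:173331886-173333750, minus strand) overlap those of Cadm3 on the same strand, so its UMIs are uncertain.

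Between liver and subcutaneous tumours edgeR called 0 of the 31 members in tumour cells, where 2.83% of all genes were called. At an unadjusted p under 0.05 there were 4 (Cxcr4, Cxcl10, Cxcl12 and Ccl7), all lower in liver, where 18% of all genes were below it, and DESeq2 called 1, Cxcr4. Without subcutaneous replicate 1, edgeR called Cxcr4 as well (adjusted p = 0.0467). A further 19 members had UMIs in tumour cells but stayed below the filter, none above 0.346 CPM as a site mean. Xcl1, Ccl1, Ccl26, Ccr8, Cxcr6 and Ccr1l1 had no UMI in any tumour or host cell, as did 10 features of the Ccl19, Ccl21 and Ccl27 families, whose near-identical copies make their counts uncertain.

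Genes around the chemokine system were taken as 4 lists, described by counts beside the 13.2% of all genes that were higher and 8.56% that were lower in brain than in liver. In tumour cells, brain against liver, the chemokine receptor signalling list had 5 higher and 2 lower of 37 tested, with Vav1, an exchange factor of blood cells (39 UMIs against 3, ratio 30.9, counting interval 9.82 to 156), Rgs10 (log2 fold change 4.22), the kinase Lyn (3.86) and the receptor kinase Grk3 (2.28). Its median log2 fold change was 0.03. The list of the NF-kB pathway and inflammatory cytokines had 8 higher and 1 lower of 26 (median 0.89), among them the adhesion molecule Icam1 (3.31), Il1rn (3.13), Tlr2 (2.68) and the receptor Tnfrsf1b, with 1 UMI in liver (ratio 52.3, 8.45 to 2158). The interferon gamma response list had 20 higher and 0 lower of 25 (median 3.84), led by Ifit1 (7.29), Gbp3 (7.10), Gbp7 (6.78) and Igtp (5.95). Cxcl10 is a standard target of the same response, but whether its level here depended on that response was not tested. The list of glycosaminoglycan carriers and chemokine processing had 7 higher and 1 lower of 26 (median 0.07), with the macrophage elastase Mmp12 at least 32.5-fold higher (0 UMIs in liver), Sdc2 (4.59) and Cd44 (1.86) higher and Cmtm8 (-1.91) lower.

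Against subcutaneous tumours the counts were 5 higher and 2 lower of 37 for receptor signalling (median 0.11), 7 and 1 of 26 for NF-kB and cytokines (0.71), 15 and 0 of 25 for the interferon list (3.02), and 6 and 3 of 26 for carriers and processing (-0.01), where 8.94% of all genes were higher and 6.13% lower. The largest changes of the 4 lists in turn were Vav1 (39 UMIs against 2, ratio 50.3, counting interval 13 to 429.6), Il1rn (5.01 on the log2 scale), Gbp3 (6.09) and Mmp12 (4.75). They were followed by Lyn (3.96) and Rgs10 (3.68) in the first list, the adhesion molecule Vcam1 (4.51) and Birc3 (3.17) in the second, Irf8 (5.43) and Ifit1 (5.35) in the third, and the syndecans Sdc4 (3.50) and Sdc2 (2.91) in the fourth. Between liver and subcutaneous tumours the calls of the 4 lists in turn were 1 of 37, 0 of 26, 2 of 25 and 0 of 26. Over all genes 2.83% were called. The 3 genes were all lower in liver, namely Stat3 (-1.06), Irf1 (-1.34) and Ifngr1 (-0.56). The myeloid marker levels given above moved with the brain comparisons of these lists too, and their part in them was not tested.

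Host cells carried most of the system. Members could pass the filter on low counts through host cells alone, so the counts below favour members that are high there. Within libraries, 17 of the 19 members tested were higher in host than in tumour cells of the same library, where 18.3% of all genes were higher, and Ccl25 and Ccl27a, the ligands of the tumour cells, were the 2 that did not pass. Their log2 fold changes, host minus tumour, were -0.78 (adjusted p = 0.103) and -0.59 (adjusted p = 0.163). The largest were Ccl4 (log2 fold change 9.26, SE 0.72, adjusted p = 1.41e-06), Pf4 (log2 fold change 8.90, SE 0.70, adjusted p = 1.55e-06) and Ccl5 (log2 fold change 8.57, SE 0.68, adjusted p = 1.71e-06). Cxcr4 differed least of the 17 (log2 fold change 1.23, SE 0.28, adjusted p = 0.00502), and Ackr1 came next (log2 fold change 2.21, SE 0.55, adjusted p = 0.00767) but was lost without brain replicate 1 (adjusted p = 0.0563). The others were Ccl6, Ccl9, Cxcl16, Ccr1, Ccl2, Ccl3, Cxcl2, Cx3cr1, Cxcl1, Cxcl14, Cxcl13 and Cxcl10, with log2 fold changes from 4.73 (Cxcl10) to 8.46 (Ccl6). With the tumour-like clusters left out, 28 of 30 members were higher in host cells, where 26.5% of all 12816 genes were higher. The other 2, Ccl25 and Ccl27a, were then lower in host cells (log2 fold changes -2.64 and -2.39, adjusted p = 0.000774 and 0.000154), where 32.1% of all genes were lower. Of the lists, 23 of 34 signalling genes were higher (Rgs1 9.20), as were 15 of 20 NF-kB and cytokine genes (Il1b 8.32), 22 of 23 interferon genes (Gbp2 8.56) and 12 of 23 carriers and processing genes (Cd74 9.01).

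**Figure D3:**
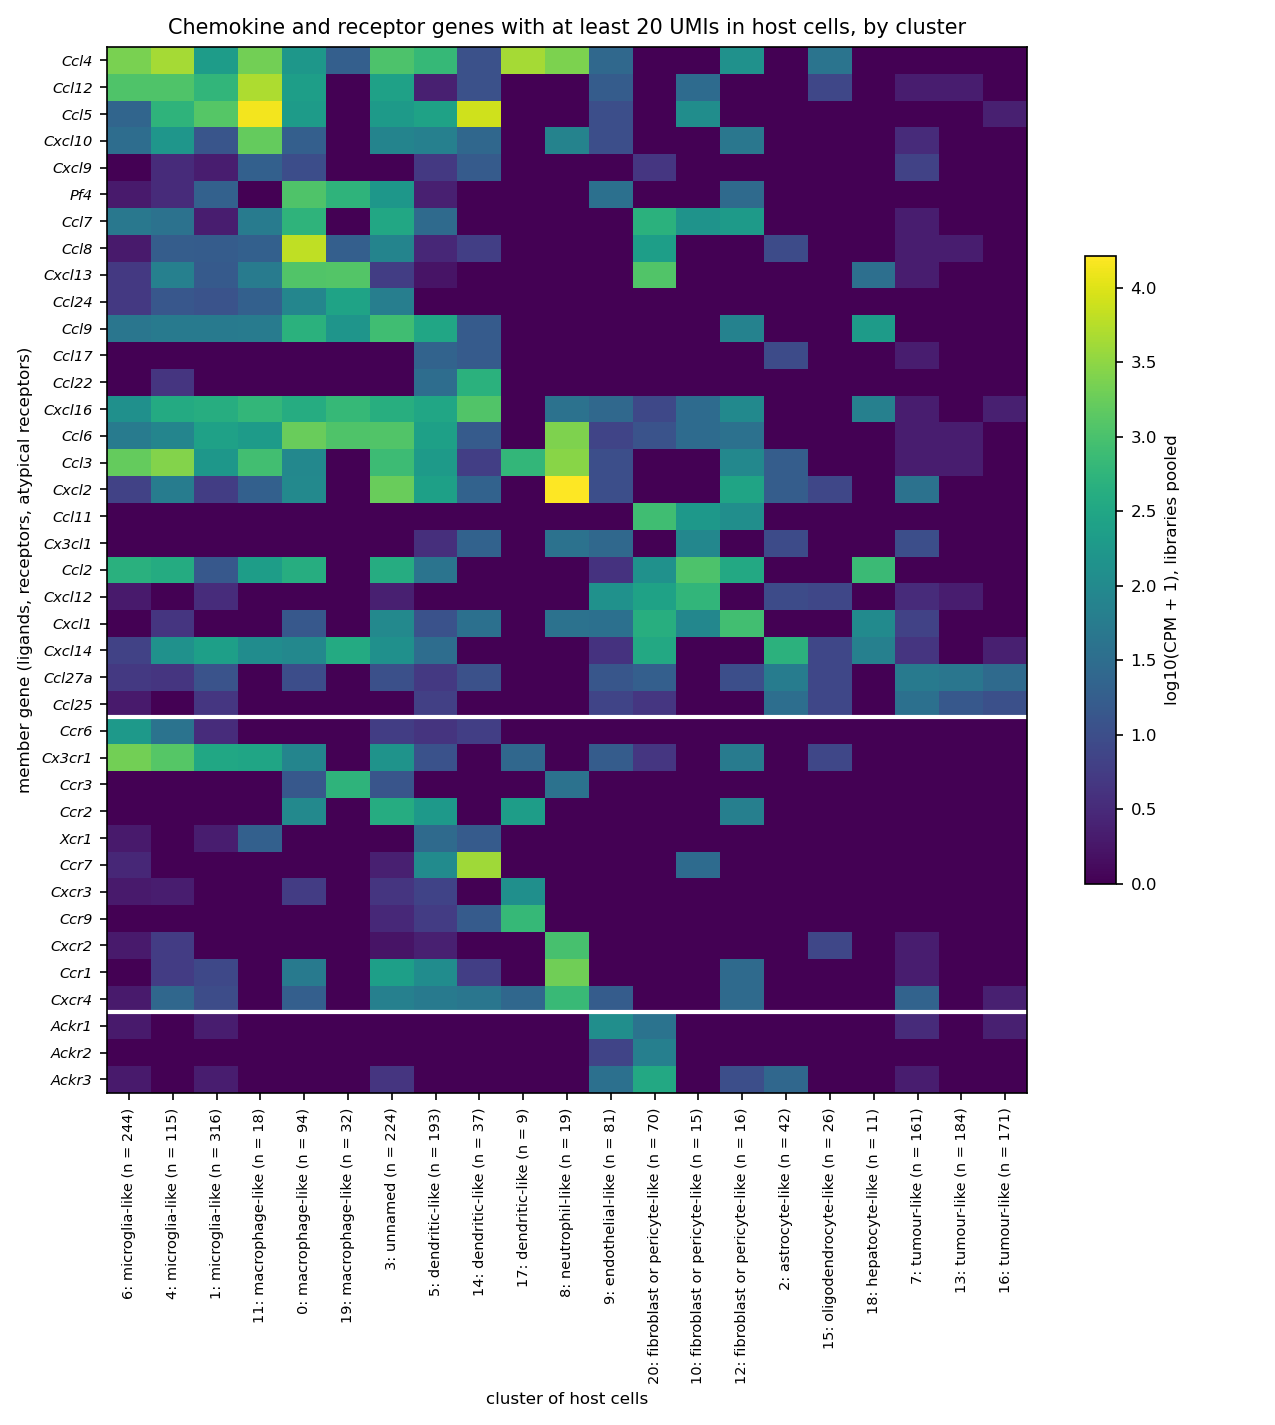
Members reported here with at least 20 UMIs in host cells (rows, ligands above, then receptors, then atypical receptors) by cluster of host cells (columns, with the number of cells), coloured by log10(CPM + 1) with libraries pooled. Ccl4, Ccl3 and Cx3cr1 were high in microglia-like clusters 6 and 4, Cxcl2 and Cxcr2 in the neutrophil-like cluster, Ccr7 and Ccl22 in dendritic-like cluster 14, and Ackr3 and Cxcl12 in fibroblast or pericyte-like cluster 20.

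Host cells were clustered without the chemokine and receptor genes, and clusters were named from markers; none was named for T, NK or B cells. The values by cluster are descriptions without a test, given for brain replicates 1 and 2 in turn, or with the libraries pooled. The 3 microglia-like clusters (244, 115 and 316 cells, all but 2 from brain) differed in their ligands. Cluster 6, with the microglial genes Tmem119 and P2ry12 among its leading genes, had Ccl4 at 2731 and 451 CPM, Ccl3 at 1887 and 396 CPM and Ccl12 at 1182 and 769.8 CPM. Cluster 4, with the cytokine genes Tnf and Il1a among its leading genes, had Ccl4 at 4821 and 1321 CPM and Ccl3 at 2861 and 1289 CPM. Ccl3 and Ccl4 thus stood lower in replicate 2 in both clusters. Cx3cr1 did not, at 2008 and 2365 CPM in cluster 6 and 1223 and 1546 CPM in cluster 4. Cluster 1, with Cst7 and Spp1 leading, had Ccl5 at 1359 and 660.2 CPM, and less Cx3cr1, at 317 and 373 CPM. A macrophage-like cluster of 18 brain cells with interferon-induced genes such as Ifit2 and Ifit3 among its leading genes (17 from replicate 1) had the highest Ccl5, 13602 CPM (exact Poisson 95% interval 12640.2 to 14618), Ccl12, 4993 CPM (exact Poisson 95% interval 4417 to 5623), and Cxcl10, 1670.4 CPM (exact Poisson 95% interval 1345 to 2051). These intervals cover counting error only.

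The other 2 macrophage-like clusters had other leading ligands. Cluster 0 (94 cells, led by Cd209f, F13a1, Folr2 and Mrc1) was found mostly in brain and subcutaneous libraries, with 1 cell each in liver replicates 2 and 3, and led in Ccl8, at 1276 and 2154 CPM in brain and 17145 CPM in subcutaneous replicate 1. Ccl6 stood there at 793 and 598 CPM and 3947 CPM, Pf4 at 483 and 681 CPM and 2161 CPM, and Cxcl13 at 0 and 13.9 CPM and 4572 CPM. All 4 had their largest value in the subcutaneous library. In subcutaneous replicate 3 the 2 host cells outside tumour-like clusters were of this cluster. Cluster 19, with the liver macrophage genes Clec4f, Vsig4 and Cd5l, held 32 liver cells, 25 of them from liver replicate 2. It had Cxcl13 (1642 CPM in that library), Ccl6 (1166), Cxcl16 (714), Pf4 (523) and Ccl24, an eotaxin (190.3).

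Cluster 3 (224 cells, led by Ear2, Ly6c2 and Thbs1) stayed unnamed, though all 10 macrophage markers were detected in it. It had Cxcl2 at 2278 and 376 CPM in brain and 1973 CPM in subcutaneous replicate 1, Ccl6 at 1032 and 584 CPM and 1928 CPM, and Ccl9 at 675 and 431 CPM and 1477 CPM. For all 3 the lowest value was that of brain replicate 2. Ccl2 stood there at 439.8 and 162 CPM and 571 CPM, and Ccl7 at 219 and 211 CPM and 689 CPM. The 19 neutrophil-like cells had the highest Cxcl2 of any cluster, 16347 CPM (exact Poisson 95% interval 14855 to 17948).

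Dendritic-like cells fell into 3 clusters with different ligands. Cluster 5 held 193 cells and was led by Cd209a, Klrb1b, Mgl2, Klrd1 and Itgae, with Klrk1 also among its leading genes. It had Ccl4 at 818 and 233 CPM in brain and 739.8 CPM in subcutaneous replicate 1. Cluster 14 (37 cells, led by Tnfrsf4 and Il4i1 among others) had Ccl5 at 9397 and 8778 CPM in brain and 4627 CPM in subcutaneous replicate 1, Cxcl16 at 1351 and 1064 CPM and 714 CPM, and Ccl22 at 444 and 627 CPM and 476 CPM. Ccl22 varied least between the 3 libraries. Cluster 17 (9 cells, led by Ptcra and Ly6d among others) had Ccl4, 4407 CPM (exact Poisson 95% interval 3785 to 5102).

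The homeostatic ligand Cxcl12 and the eotaxin Ccl11 had their highest pooled levels in stromal clusters, though other ligands stood higher than Cxcl12 in some of these. The 70 cells of fibroblast or pericyte-like cluster 20 all came from subcutaneous replicate 1 and had Cxcl13, 1174 CPM (exact Poisson 95% interval 1051 to 1309), the eotaxin Ccl11, 844 CPM (exact Poisson 95% interval 739.6 to 959), Ccl7, 492 CPM (exact Poisson 95% interval 413 to 582), Cxcl1, 442 CPM (exact Poisson 95% interval 367 to 527), and Cxcl12, 266 CPM (exact Poisson 95% interval 209 to 334). In brain, the 15 cells of fibroblast or pericyte-like cluster 10 had Cxcl12 at 201 and 1119.7 CPM and the 81 endothelial-like cells, mostly of brain, had it at 69.6 and 367 CPM. Cxcl12, the ligand of the one receptor well measured in tumour cells, thus had its 3 highest pooled levels in stromal and endothelial clusters. The 16 cells of fibroblast or pericyte-like cluster 12, led by Acta2 and Rgs5, had Cxcl1, 875 CPM (exact Poisson 95% interval 709 to 1068).

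Of the 23 signalling and atypical receptors, 15 had at least 10 UMIs in host cells. Cx3cr1 had 3730 UMIs, most of them in the microglia-like clusters given above. Ccr6, the receptor of Ccl20, was highest in microglia-like cluster 6, at 173 and 209 CPM, with 182 of its 231 UMIs, although Ccl20 itself had none in host cells. Ccr2, the monocyte receptor of Ccl2, Ccl7 and Ccl12, was highest in cluster 3, at 418 and 282 CPM in brain and 505 CPM in subcutaneous replicate 1. Ccr1 and Cxcr2, receptors by which neutrophils follow CC and CXC ligands, were highest in the 19 neutrophil-like cells. Ccr1 stood there at 1969 CPM (exact Poisson 95% interval 1475 to 2576) and Cxcr2 at 966 CPM (exact Poisson 95% interval 631 to 1415). Cxcr4 was also highest there, 706 CPM (exact Poisson 95% interval 425 to 1102), on 19 UMIs. Ccr7 was highest in dendritic-like cluster 14, at 4187 and 3078 CPM in brain and 5129 CPM in subcutaneous replicate 1. Ccr9, the receptor of Ccl25, was highest in the 9 cells of dendritic-like cluster 17, 665 CPM (exact Poisson 95% interval 438 to 967), as was Cxcr3, 123 CPM (exact Poisson 95% interval 40.0 to 287), on 5 UMIs. Xcr1, a receptor of cross-presenting dendritic cells, had 42 of its 48 UMIs in dendritic-like cluster 5. Ccr3, the eotaxin receptor, was highest in liver cluster 19, at 523 CPM in liver replicate 2.

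The atypical receptors were highest in stromal and endothelial clusters. Ackr3, a scavenger of Cxcl12, was highest in fibroblast or pericyte-like cluster 20, 348 CPM (exact Poisson 95% interval 283 to 425), as was Ackr2, a scavenger of inflammatory CC ligands, 64.6 CPM (exact Poisson 95% interval 38.3 to 102). Ackr1 was highest in endothelial-like cells, 119.6 CPM (exact Poisson 95% interval 84.6 to 164), on 38 UMIs, of which 35 were in brain replicate 1. No myeloid cluster had more than 5 UMIs of Ackr3, and Ackr4 had 1 UMI in all host cells.

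Across sites the host cells as a whole could be compared only coarsely, because their makeup differed. Summed over ligands, host cells stood at 6067 and 2754 CPM in brain, 243, 691 and 816 CPM in liver, and 5736, 179 and 1687 CPM in subcutaneous tumours. Summed over signalling receptors they stood at 1193 and 1005 CPM in brain, 39.4, 139 and 149.6 CPM in liver, and 558, 17.6 and 31.9 CPM in subcutaneous tumours. Low values fell in libraries where tumour-like cells made up most host cells. Subcutaneous replicate 3 held only 2 host cells outside tumour-like clusters, whose ligands summed to 41982 CPM. Of 29 members tested, 3 passed between brain and liver, where 11.3% of all 7480 genes did, and 2 between brain and subcutaneous tumours, where 2.95% did. Cx3cr1 was higher in brain than in liver (log2 fold change 7.0, SE 0.97, adjusted p = 0.0246) and than in subcutaneous tumours (log2 fold change 4.93, SE 0.81, adjusted p = 0.0415), at 641 and 459 CPM in brain, 0, 6.75 and 0 CPM in liver and 31.1, 10.6 and 3.99 CPM in subcutaneous tumours. Ccr6 stood at 39.2 and 31.5 CPM in brain, 3.58, 0 and 0 CPM in liver and 0, 0 and 0 CPM in subcutaneous tumours. With 1 UMI in liver its ratio was 51.4 (counting interval 9.13 to 2039, adjusted p = 0.0355), and with 0 in subcutaneous tumours brain was at least 27.8-fold higher against a floor of 3 counts over the 3 libraries (adjusted p = 0.0415). Ccl27a was lower in host cells of brain than of liver (log2 fold change -2.08, SE 0.41, adjusted p = 0.0247), at 8.31 and 12.3 CPM in brain, 28.6, 31.0 and 39.5 CPM in liver and 25.5, 35.2 and 19.9 CPM in subcutaneous tumours, and with it moved the share of tumour-like cells among host cells, 23 of 958 and 18 of 351 in brain against 46 of 57, 113 of 168 and 72 of 90 in liver. None of these calls held without any 1 of the brain or liver libraries: against liver, adjusted p ran from 0.0718 to 0.213 for Cx3cr1, 0.0871 to 0.354 for Ccr6 and 0.0718 to 0.258 for Ccl27a. Against subcutaneous tumours neither call held without any 1 library other than subcutaneous replicate 1, with adjusted p from 0.0693 to 0.295 for Cx3cr1 and 0.0554 to 0.432 for Ccr6. Without subcutaneous replicate 1 the counts were 15 and 14, where 47.5% and 50% of all genes were called, and without subcutaneous replicate 2 they were 11 and 0, where 18.6% and 0.283% were.

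Between liver and subcutaneous tumours edgeR called 0 of 29 members in host cells, where 0.0134% of all genes were called. At an unadjusted p under 0.05 there were 5 (Ccl7, Ccl8, Ccl11 and Cxcl1 lower in liver, Ccr3 higher), where 7.46% of all genes were below it, and DESeq2 called 1, Ccl7. Without subcutaneous replicate 1 or 2, edgeR called 2 and 1, where 3.25% and 0.0257% of all genes were called. With the tumour-like clusters left out and libraries of at least 10 cells kept, 6 of 36 members were called for brain against liver (3.1% of all 9287 genes). For brain against subcutaneous tumours 13 were called (7.21% of all genes), 10 of them lower in brain, and for liver against subcutaneous tumours 10 (4.27%), 9 of them lower in liver. In simulated data of the design with all 8 libraries, 27% of genes changed 4-fold were recovered in host cells. A member that did not pass in host cells may thus still differ. Of the lists in host cells, brain against liver, 1 of 35 receptor signalling genes was called, Arrb2 (1.45). The NF-kB and cytokine list had 2 of 27, Il1a (4.44) and Rela (1.49), and the interferon list 0 of 25. Of 21 carriers and processing genes, Cmtm6 (3.58) was higher and the glypican Gpc3 (-4.19) lower, where 11.3% of all genes were called. Against subcutaneous tumours receptor signalling had 0 of 35 and the interferon list 0 of 25, where 2.95% of all genes were called. The NF-kB list had 2 of 27 higher, Vcam1 (3.13) and Il1a (1161 UMIs against 2, ratio 211, counting interval 58.2 to 1743). Of 21 carriers and processing genes, Mmp12 (4.79) was higher and Gpc3 (-4.36) lower. The highest mean levels in host cells over the 8 libraries were those of Ccl4 (382 CPM), Ccl8 (219), Ccl6 (213), Ccl3 (206), Ccl5 (189), Cxcl2 (179) and Cx3cr1 (144). They were followed by Ccl9 (136), Ccl12 (118), Cxcl16 (117), Ccl2 (91.3), Ccl7 (78.8), Cxcl13 (67.4), Pf4 (67.3) and Ccr7 (62.9). These means weigh all libraries alike, subcutaneous replicate 3 included. There, 2 host cells lay outside tumour-like clusters, both of cluster 0, which led in Ccl8.

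Within myeloid cells alone, 4 libraries held at least 20 cells, brain replicates 1 and 2, liver replicate 2 and subcutaneous replicate 1, which leaves 1 residual degree of freedom. Liver and subcutaneous tumours are then 1 library each, so the SE and p below rest on the spread between the 2 brain libraries, and the other libraries are assumed to vary like them. Each test was therefore also run with liver and subcutaneous library as 1 group, so that their difference counts as spread. Cells with microglial genes were nearly all in brain, as P2ry12 stood at 1372 and 1158 CPM in brain against 42.2 and 8.53 CPM in the liver and subcutaneous library, so cell type and site cannot be told apart. Brain was higher for 4 of 29 members (2.57% of all 8303 genes were higher) and lower for 3 (0.927% were lower). Cx3cr1 stood at 723 and 573 CPM in brain, 30.1 CPM in liver and 61.1 CPM in the subcutaneous library (log2 fold change 3.88, SE 0.27, adjusted p = 0.000335). Ccl5 stood at 888 and 642, 217 and 260.1 CPM in the same order (log2 fold change 1.66, SE 0.23, adjusted p = 0.0117). Cx3cr1 kept its call in all 11 alternative fits that could be run, and Ccl5 in 10, losing it without brain replicate 1 in the test of 2 groups (adjusted p = 0.193). Ccr6 stood at 44.3 and 39.4 CPM in brain and had no UMI in the others, so brain was at least 12.5-fold higher against a floor of 3 counts over both (adjusted p = 0.00663). Ccl12 stood at 661 and 365, 0 and 132 CPM (adjusted p = 0.0178). With no UMI in the liver library its fitted fold in the test of 3 sites depends on the prior count and is not printed, and over the alternative fits it ran from 1.85 to 12.88 on the log2 scale. The call of Ccl12 was lost without liver replicate 2 (log2 fold change 1.85, adjusted p = 0.0798), without subcutaneous replicate 1 (adjusted p = 0.0532) and with the 2 libraries as 1 group (2.57, adjusted p = 0.396). The call of Ccr6 was lost without subcutaneous replicate 1 (adjusted p = 0.0858) and kept with the 2 libraries as 1 group (adjusted p = 0.0274).

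Of the 3 ligands called lower in brain, only Cxcl13 kept its call with the liver and subcutaneous library as 1 group (adjusted p = 0.00493). Cxcl13, which draws B cells, stood at 17.1 and 6 CPM in brain, 416 CPM in liver and 375 CPM in the subcutaneous library (log2 fold change -4.90, SE 0.41, adjusted p = 0.00663). Ccl6 stood at 306 and 236, 482 and 1731 CPM (log2 fold change -1.78, SE 0.20, adjusted p = 0.00470). Ccl9 stood at 184 and 170.5, 163 and 1277 CPM (log2 fold change -1.40, SE 0.20, adjusted p = 0.0103). For Ccl9 the liver library lay just below the brain libraries and the subcutaneous library alone was high, so brain was not lower than liver. With the 2 libraries as 1 group the calls of Ccl6 (adjusted p = 0.267) and Ccl9 (adjusted p = 0.421) were lost. Without the subcutaneous library neither Ccl6 (log2 fold change -0.80, adjusted p = 0.267) nor Ccl9 (0.15, adjusted p = 0.890) was called. In all, 4 members were called without subcutaneous replicate 1 (1.01% of all genes), 12 without liver replicate 2 (6.83%) and 4 with the 2 libraries as 1 group (1.35%). With libraries of at least 10 myeloid cells, the call of Cxcl13 was lost (adjusted p = 0.215). Among the lists in myeloid cells, 2 of 40 receptor signalling genes were higher in brain, Rgs10 (0.89) and Rgs2 (0.88). Of 29 NF-kB and cytokine genes Nfkb1 (-1.09) was lower. Of 25 interferon genes Irf8 (0.97) was higher and Irf7 (-0.99) lower. Of 20 carriers and processing genes Cmtm6 (1.62) was higher and Sdc3 (-1.29) lower. Beside these, 2.57% of all genes were higher and 0.927% lower.

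**Figure D4:**
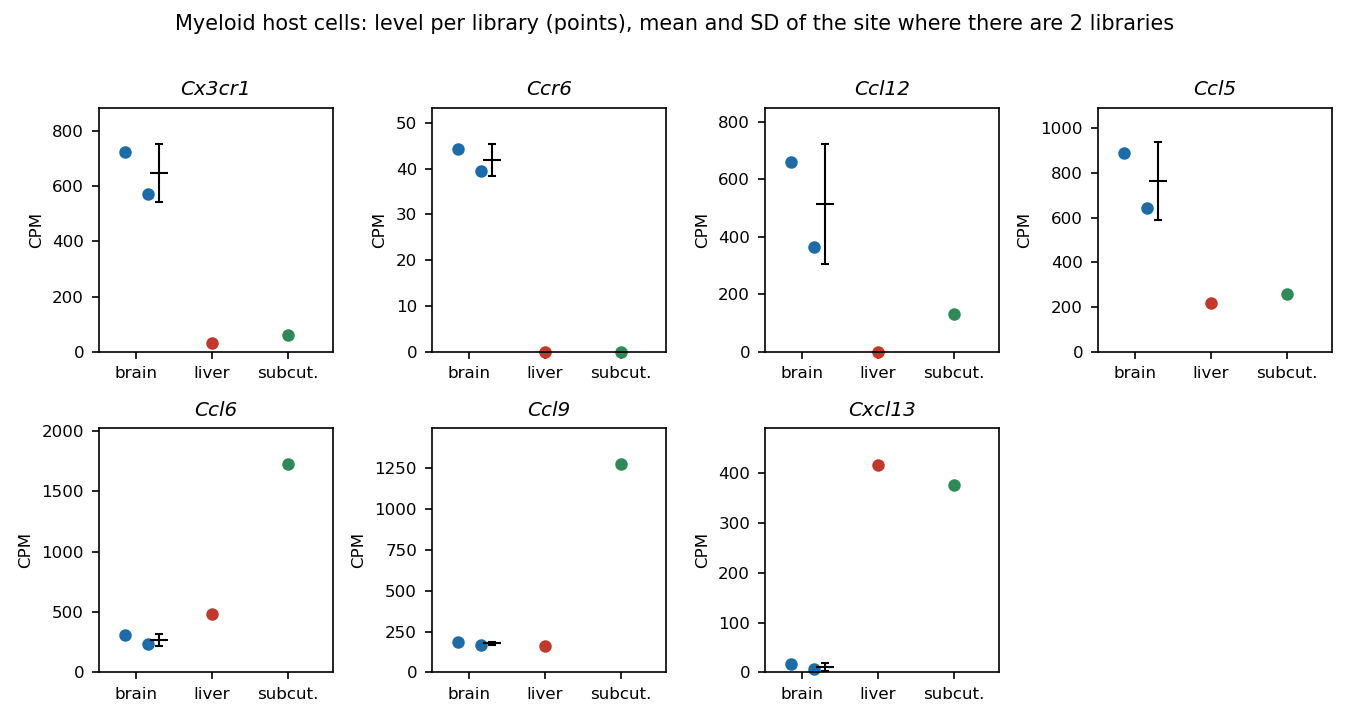
Levels of the 7 called members in myeloid host cells, 1 point per library with at least 20 myeloid cells (2 brain, 1 liver, 1 subcutaneous), with the mean and SD of the brain libraries (CPM, linear axes from 0). Cx3cr1, Ccr6, Ccl12 and Ccl5 were highest in the brain libraries, Cxcl13 lowest there, and Ccl6 and Ccl9 were highest in the subcutaneous library.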

How the data were processed

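UMI counts per gene and cell were deposited by the authors for 8 libraries as filtered 10x matrices (software version 3.0.0 per the file headers), made with Cell Ranger and STAR on mm10 per the submitters' processing notes. The annotation and the strand setting are not given in the sources used here. Cells were required to show 500 genes or more and no more than 10% mitochondrial UMIs, split at 0.2% eGFP and Mycl UMIs, and their counts summed per library. Doublets were neither called nor removed. Sums were tested across all 8 libraries with edgeR 4.0.16 (R 4.3.3; TMM scaling, filterByExpr, robust quasi-likelihood F test, Benjamini-Hochberg adjustment over all genes tested, adjusted p under 0.05). The SE printed is the absolute log2 fold change divided by the square root of F. Host cells were compared with tumour cells with the library as a block. CPM are UMIs scaled to a sum of 1e6 over the same cells.

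Host cells were clustered with scanpy 1.11.5 and igraph 0.11.9 (Python 3.11.15; 2000 variable genes without the members, 30 principal components, 15 neighbours, Leiden resolution 1). A cluster was named when at least 3 markers of a class were detected in at least 20% of its cells and its leading genes did not speak against it. Myeloid cells were the microglia-, macrophage-, dendritic- and neutrophil-like clusters with unnamed cluster 3, and libraries with at least 20 such cells were tested. Poisson intervals (scipy 1.17.1, 95%) cover counting error only. Floors are 3 counts over the group without UMIs. Motif matches could overlap, and gene positions are those of GENCODE M21 on GRCm38, the assembly that mm10 names.

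The members and gene lists were chosen with earlier results of these data known, so counts over them are descriptions. Counts are over all members, and values of 1 member are not reported here. Named are the other members tested in tumour cells, in host cells the 15 with the highest mean level, those past the threshold and receptors with at least 10 UMIs, and of each list up to 4 called genes with the largest change per comparison. In simulated data with 200 genes changed 4-fold, the tests recovered 93% in tumour cells (brain against liver, 13723 genes), 27% in host cells (brain against liver, 6729 genes), 93% for host against tumour cells (11896 genes) and 84% in myeloid cells (7785 genes), with 2.11%, 1.82%, 2.62% and 4% false calls. The changed genes were drawn only from those above a limit on the expected count, with the spread typical of their level. These rates do not cover members with few UMIs or a wider spread. Alternatives were DESeq2 1.42.0, its size factors, no filter on low counts, other eGFP and Mycl limits, all deposited barcodes, tumour cells without myeloid marker UMIs, a replicate block, only the sites compared and each library left out. Leaving out tumour-like clusters, brain against the others as 2 groups (also with a replicate block or without each brain library) and a minimum of 10 myeloid cells were chosen after seeing the data.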

Additional observations from a re-analysis of the deposited data

How the results depend on the processing

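In tumour cells, 14 members were called between brain and liver, 12 between brain and subcutaneous tumours and 0 between liver and subcutaneous tumours. Leaving out 1 library at a time gave 3 to 20, 1 to 20 and 0 to 1. In cells with 0 myeloid marker UMIs the counts were 8, 4 and 1, and with only the sites compared the brain and subcutaneous count was 4. Between liver and subcutaneous tumours, DESeq2, its size factors and no filter on low counts each gave 1. In host cells, where 3, 2 and 0 were called, leaving out 1 library gave 0 to 15, 0 to 14 and 0 to 2. DESeq2 gave 5 for brain against liver and 1 for liver against subcutaneous tumours. Host cells under 0.05% eGFP and Mycl gave 6, 11 and 10. Host cells without tumour-like clusters gave 6 for brain against liver, and there subcutaneous replicate 1 alone stood for its site. Host against tumour cells, with 17 called, gave 14 to 21 with 1 library left out, 44 without the filter and 30 (28 higher and 2 lower) without tumour-like clusters. In myeloid cells, with 7 called, the counts were 4 to 12 with 1 library left out (a brain library only with the others as 1 group), 12 without the filter, 4 for brain against the others as 2 groups and 13 with at least 10 myeloid cells. The causes of these changes were not tested. The share of all genes called moved between settings too. For host cells of brain against liver it was 11.3% in the main fit and 3.1% without tumour-like clusters. Counts of members given in this section without that share are therefore not results about the members.

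Deviations from the site mean correlated at -0.235 to 0.241 between same-numbered libraries of different sites, and at -0.252 to 0.275 between the others. The deviations of the 2 brain libraries are equal and opposite, so these values are not independent. They cannot decide whether the numbers pair the libraries. With a replicate block, 10, 8 and 0 members were called in tumour cells and 0, 0 and 0 in host cells. In myeloid cells a block, like leaving out a brain library, leaves the test of 3 sites no residual degree of freedom. With brain against the others as 2 groups it could be fitted, and the replicate block gave 8 called members.

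Directions that turned are given as log2 fold changes. In cells with 0 myeloid marker UMIs, Cxcl13 stood at -0.55 for brain against liver, Cxcr4 at -0.0026 and Ccl2 at -0.98 for brain against subcutaneous tumours, and Cxcl2 at -2.64 and Cxcl16 at -1.03 for liver against subcutaneous tumours. With 1 library left out at a time, brain against subcutaneous tumours ran from -1.57 to 5.01 for Ccl2 (lowest without brain replicate 1), -1.03 to 0.77 for Cxcl13, -2.47 to 3.30 for Ccl8 and -1.91 to 4.98 for Ccl9. Liver against subcutaneous tumours ran from -0.98 to 0.076 for Ackr1, -6.33 to 0.55 for Pf4, -1.36 to 0.043 for Cxcl13, -4.02 to 1.25 for Ccr2, -2.98 to 1.03 for Ccl2, -3.02 to 2.66 for Ccl9, -3.41 to 1.93 for Ccl6 and -2.33 to 0.62 for Ccr7. In myeloid cells Ccl9 ran from -2.96 to 0.15. The highest value of each of these came without subcutaneous replicate 1. Only the tests of Cxcr4, Cxcl10 and Cx3cr1 against liver and of Cx3cr1 against subcutaneous tumours passed in all 17 alternative fits in tumour cells. Depth limits the members with few UMIs, and 2 or 3 libraries per site limit all comparisons.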
